A study of Mus musculus with 6 samples.

Results

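Cholesterol supply in the adrenal gland was described through 7 genes: 5 that encode enzymes of sterol and isoprenoid synthesis (Hmgcs1, Mvd, Fdps, Ggps1 and Msmo1) and 2 that encode proteins of cholesterol uptake and transport (Scarb1 and Npc1). All clones whose annotated gene was 1 of these 7 were taken, which gave 16 of the 36064 clones on the array: 11 clones of the synthesis genes and 5 clones of the uptake and transport genes. The arrays compared adrenal glands of 129XC57BL6 PACAP +/+ F2 mice (wild type) with those of 129XC57BL6 PACAP -/- F2 mice (knockout), so that both groups came from the same mixed F2 background and differed in the labels only in the PACAP allele. PACAP, encoded by Adcyap1, is a neuropeptide that the splanchnic nerve releases onto the chromaffin cells of the adrenal medulla. Total RNA of whole glands was used, and the labels give neither age, sex, treatment nor the number of animals behind an RNA. Each of 6 spotted cDNA arrays held 1 wild-type RNA labelled with Cy5 and 1 knockout RNA labelled with Cy3, and the dyes were never swapped, so a clone's preference for 1 dye and a difference between the genotypes cannot be told apart.

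Cells make cholesterol from acetyl-CoA through the mevalonate pathway. Hmgcs1 makes HMG-CoA, Mvd makes isopentenyl diphosphate from diphosphomevalonate, Fdps joins isoprene units into farnesyl diphosphate, and Msmo1 removes methyl groups from the sterol nucleus on the way to cholesterol, while Ggps1 draws farnesyl diphosphate off into geranylgeranyl diphosphate, the lipid anchor of many small GTPases. The adrenal cortex also takes up cholesterol from plasma lipoproteins. In mice it does so largely through Scarb1, the high-density lipoprotein receptor SR-BI, and Npc1 carries cholesterol out of late endosomes and lysosomes. Genes of sterol synthesis are switched on together by the transcription factor SREBP-2 when sterols in the endoplasmic reticulum run low, and cholesterol is the substrate from which the cortex makes every steroid hormone.

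SREBP proteins bind sterol regulatory elements in the promoters of these genes, usually next to NF-Y (CCAAT) and Sp1 (GGGCGG) boxes. The 250 bases before the annotated start of Hmgcs1 and of Msmo1 are shown as an early and a late step of the sterol route. They are from RefSeq, mouse assembly GRCm38.p6, each written 5′ to 3′ on the strand of its gene, with every match to a searched motif in capitals.
Hmgcs1, chr13:119690101-119690350, + strand: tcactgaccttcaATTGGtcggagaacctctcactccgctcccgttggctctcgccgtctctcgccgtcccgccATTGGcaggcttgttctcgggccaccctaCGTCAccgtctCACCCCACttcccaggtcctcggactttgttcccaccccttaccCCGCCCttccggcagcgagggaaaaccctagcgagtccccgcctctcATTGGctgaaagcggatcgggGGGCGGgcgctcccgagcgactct
Msmo1, chr8:64733579-64733828, - strand: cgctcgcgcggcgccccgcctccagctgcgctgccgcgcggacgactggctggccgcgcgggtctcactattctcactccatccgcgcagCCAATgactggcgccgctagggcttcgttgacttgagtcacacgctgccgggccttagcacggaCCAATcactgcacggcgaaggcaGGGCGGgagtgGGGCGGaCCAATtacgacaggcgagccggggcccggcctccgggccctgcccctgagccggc
The Hmgcs1 window holds the sterol regulatory element core CACCCCAC starting 136 bases before the start, 3 CCAAT boxes (all on the opposite strand, read here as ATTGG), 2 GGGCGG boxes and 1 TGACG, the core of the cAMP response element. The Msmo1 window holds 3 CCAAT boxes and 2 GGGCGG boxes, all as written here, and neither CACCCCAC nor TGACG was found in it.

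The motifs were searched on both strands of the 32851 windows of the same length in the RefSeq promoter table. CCAAT was in 33.8% of all windows, GGGCGG in 32.7%, TGACG in 17.8% and CACCCCAC in 2.58%. The SF-1 site CAAGGTCA (1.33% of windows) and the full cAMP response element TGACGTCA (1.55%, a form that contains TGACG) were in neither of the windows shown. The table also held Mvd and Ggps1, whose windows overlap annotated genes and are not shown. A match describes these letters and is not evidence of a bound site. In the same assembly Fdps lies at chr3:89093588-89101967, Scarb1 at chr5:125277087-125341094, Msmo1 at chr8:64718123-64733578 and Mvd at chr8:122433596-122443422, with Ggps1 at chr13:14049790-14063566. The clones themselves were not placed within these genes.

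All values below are log2 ratios of knockout over wild type, so a positive value means a stronger knockout signal. The main values were normalized by print-tip loess, which fits a curve of ratio against intensity in each of the 48 print blocks, the areas of the slide that 1 pin printed. Global loess, which fits 1 curve per array, is given beside them. Print blocks held 46.9% of the spread (variance) in the spots' mean ratios after global loess and 0.0635% after print-tip loess. The second value is low by construction, because print-tip loess fits each block, and does not show which normalization is nearer the truth. Block means after global loess ran from -0.57 to 0.56. Clones were called by limma where the p-value adjusted over 28749 clones (Benjamini-Hochberg) was under 0.05. The labels number the arrays as repeats without saying whether they held RNA of separate animals, so p-values measure the spread between 6 arrays, which may be technical.

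The quality filter kept between 26027 and 31960 of the 37632 spots of an array. The median green (knockout) signal was 5.15 to 6.79 times its local background, whereas the median red (wild-type) signal was 4.57 times its background on array 1 and 1.11 to 2.02 times on the other 5 arrays, lowest on arrays 4 (1.11) and 2 (1.32). The targeted gene, Adcyap1, could not serve to check the labels, because its single clone had a usable ratio on 2 of 6 arrays (knockout signal 222.9 and 227.0 units, wild-type 86.5 and 94.2 units, on arrays 3 and 5) and was not tested. Of 12 listed cortex markers, 6 were measured, and all 10 of their spots had a green signal at or above the local background on every array, with Star, Cyp11a1 and Hsd3b1 among them. Of 10 medulla markers 6 were measured, Th, Ddc, Chga and Chgb included, also all with green signal at or above background. The red (wild-type) signal was at or above background for 10, 7, 9, 7, 10 and 8 of the 10 cortex spots on arrays 1 to 6. For the 9 medulla spots it was so on every array.

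Of the 15 member clones that could be tested, 4 were called higher and 2 lower in the knockout after print-tip loess. Over all clones 3271 of 28749 were called (11.4%), of which 1946 (6.77%) were higher and 1325 (4.61%) lower. After global loess 5 member clones were called higher and 4 lower, beside 8744 clones called overall (30.4%), 4659 (16.2%) higher and 4085 (14.2%) lower. The same call in both normalizations was made for 3 member clones: 1 of Hmgcs1 and 1 of Fdps were higher, and 1 of Ggps1 was lower. For every other called clone the call depended on the normalization. In Hmgcs1, Ggps1, Scarb1, Fdps and Npc1, 1 or 2 clones were called after print-tip loess and at least 1 was not.

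**Figure D1:**
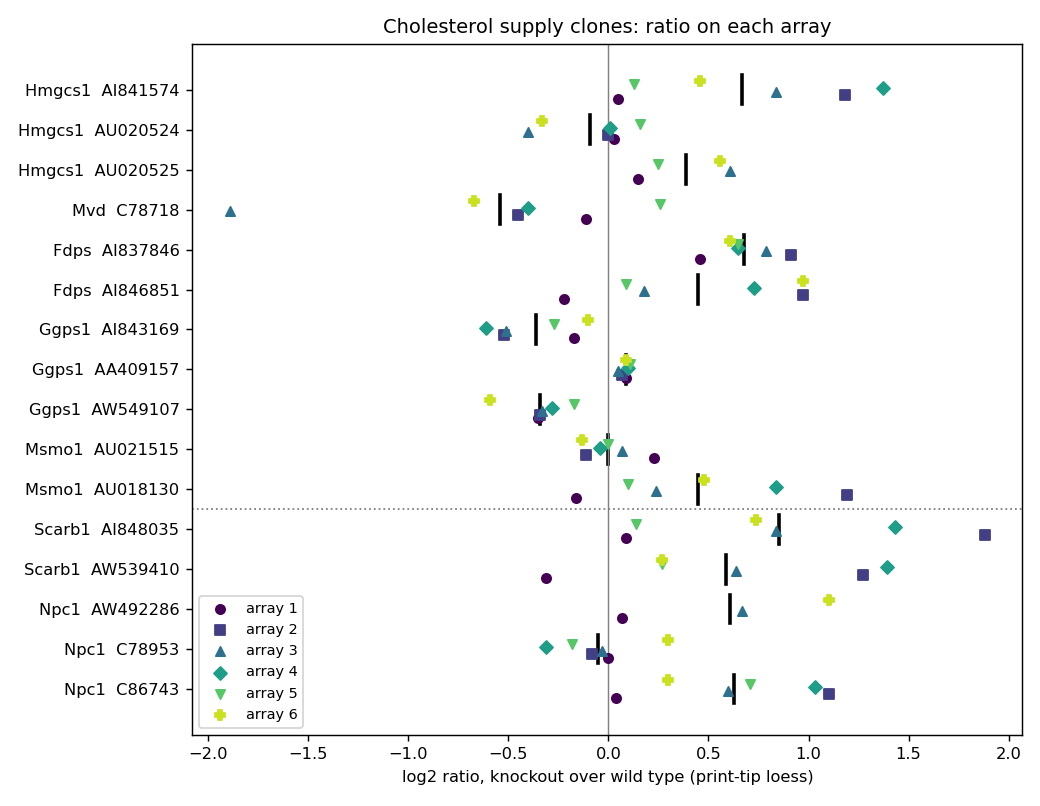
Log2 ratio of knockout over wild type (horizontal axis, print-tip loess) for each of the 16 clones (rows), with 1 symbol per array and a black bar at the mean. The dotted line separates the synthesis clones above from the uptake and transport clones below. Fdps AI837846 lies between 0.46 and 0.91 on all 6 arrays, while the 2 Scarb1 clones, Hmgcs1 AI841574 and Msmo1 AU018130 have their highest values on arrays 2 and 4.

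Fdps, which makes farnesyl diphosphate, the last intermediate that sterols and isoprenoids share, gave the smallest p among the members. On arrays 1 to 6, clone AI837846 had log2 ratios of 0.46, 0.91, 0.79, 0.65, 0.65 and 0.61. Every array was on the same side, with the array of strongest wild-type signal the lowest. Its mean was 0.68 ± 0.08 (SE, n = 6), a 1.6-fold higher knockout signal (limma, adjusted p = 0.0167), and global loess gave 0.58 ± 0.13 (adjusted p = 0.0052). The green signal lay between 1094.0 and 2369.2 intensity units and the red between 222.1 and 1009.6, with red at or above its local background on all 6 arrays. Leaving out 1 array at a time kept the ratio at 0.63 to 0.72, and the call was lost without array 2 or without array 3 (adjusted p up to 0.0742). Without both arrays 2 and 4 the ratio was 0.63 (adjusted p = 0.0353). It was the only member clone called without these 2 arrays after print-tip loess. With global loess it lost its call without them (0.51, adjusted p = 0.0675), while Fdps AI846851 (0.88, adjusted p = 0.0207) and Hmgcs1 AU020525 (0.66, adjusted p = 0.03) were called.

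The other Fdps clone, AI846851, carried the same title in the scanner files and was more variable. Its log2 ratios were -0.22, 0.97, 0.18, 0.73, 0.09 and 0.97 on arrays 1 to 6. Arrays 2, 4 and 6 were high and array 1 was below 0. The mean of 0.45 ± 0.16 was not called (adjusted p = 0.0844). After global loess it was 1.04 (adjusted p = 0.00146), in a print block whose clones averaged 0.52 after global loess, and red was at or above its background on 5 of 6 arrays. The sign was the same in both clones and both normalizations.

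Hmgcs1, the cytosolic HMG-CoA synthase, was represented by 3 clones that did not behave alike. Clone AI841574 had log2 ratios of 0.05, 1.18, 0.84, 1.37, 0.13 and 0.46 on arrays 1 to 6, above 0 on every array but near it on arrays 1 and 5. The mean was 0.67 ± 0.17 (SE, n = 6), 1.59-fold (limma, adjusted p = 0.039), and 0.72 ± 0.18 with global loess (adjusted p = 0.00966). The knockout signal was 780.8 to 1828.3 units, and the wild-type signal fell below its local background on array 4, where it was 83.2 units. On array 2 the wild-type signal was close to its local background (137.6 against 131.6 units). The call was lost in turn without array 2, 3, 4 or 6, with ratios between 0.53 and 0.80 over the 6 fits and an adjusted p of up to 0.105. Without arrays 2 and 4 together the ratio was 0.37 (adjusted p = 0.194).

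Clone AU020524 of Hmgcs1 had much stronger wild-type signal (a median of 22.3 times the background, against 2.34 for AI841574). Its log2 ratios were 0.03, -0.00, -0.40, 0.01, 0.16 and -0.33, on both sides of 0, and the mean was -0.09 ± 0.09 (adjusted p = 0.531). Global loess put it at -0.44 (adjusted p = 0.0317), lower in the knockout, in a print block that averaged -0.36. Clone AU020525, measured on arrays 1, 3, 5 and 6, had 0.15, 0.61, 0.25 and 0.56, with a mean of 0.39 ± 0.12 (n = 4, adjusted p = 0.0622). Global loess gave 0.66 (adjusted p = 0.0116) in a block that averaged 0.56. Global loess thus called Hmgcs1 clones in opposite directions, and print-tip loess did not. The scanner files title both AI841574 and AU020524 as another gene, so the gene behind these clones rests on the later annotation.

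Mvd, which makes isopentenyl diphosphate, had 1 clone, C78718, whose accession RefSeq lists as a synonym of the gene. Its log2 ratios were -0.11, -0.45, -1.89, -0.40, 0.26 and -0.67, below 0 on 5 arrays, with array 3 far below the others. On array 3 both wild-type signal and its local background were raised (400.0 and 285.5 units). The mean of -0.54 ± 0.22 was not called (adjusted p = 0.121), while global loess gave -0.68 ± 0.24 (adjusted p = 0.0499). Over the fits that left out 1 array the print-tip ratio ran from -0.70 to -0.27 and was called in none of 6.

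**Figure D2:**
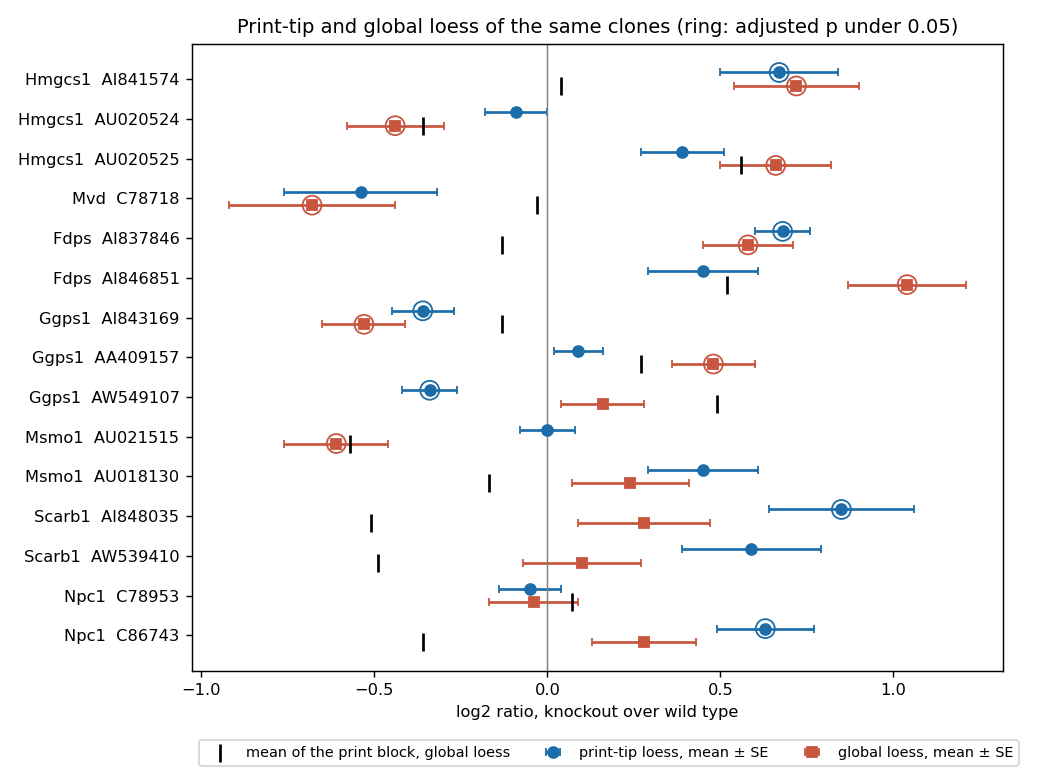
Mean log2 ratio of knockout over wild type with its SE for the 15 tested clones (rows) after print-tip loess (blue) and global loess (red), with a ring where the adjusted p was under 0.05 and a black tick at the mean of the clone's print block after global loess. Fdps AI837846, Hmgcs1 AI841574 and Ggps1 AI843169 are ringed on the same side in both, whereas Ggps1 AW549107 goes from -0.34 to 0.16 and Msmo1 AU021515 from 0.00 to -0.61.

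Ggps1, which makes geranylgeranyl diphosphate and so lies on the isoprenoid branch outside sterol synthesis, was lower in the knockout by 2 of its 3 clones after print-tip loess. Clone AI843169 had log2 ratios of -0.17, -0.52, -0.51, -0.61, -0.27 and -0.10, below 0 on all 6 arrays and nearest to 0 on arrays 1 and 6. Its mean was -0.36 ± 0.09 (SE, n = 6), 1.29-fold lower (limma, adjusted p = 0.0372), and -0.53 ± 0.12 with global loess (adjusted p = 0.00538). This was a dim clone, with wild-type signal between 104.3 and 297.0 units and a median of 1.75 times the background. Print-tip ratios ran from -0.42 to -0.31 when 1 array was left out, and the call held only without array 1 (adjusted p up to 0.107 over the 6 fits). Its sign turned in the authors' deposited table of log2 ratios, where background was subtracted a second time: the median-centred mean was 1.15 (adjusted p = 0.342).

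Clone AW549107 of Ggps1 shared the title and UniGene cluster of AI843169. Its log2 ratios were -0.35, -0.34, -0.33, -0.28, -0.17 and -0.59, so all arrays were on 1 side, with array 6 the lowest. The mean of -0.34 ± 0.08 (1.27-fold lower, limma, adjusted p = 0.0322) turned to 0.16 ± 0.12 after global loess (adjusted p = 0.306) and to 0.10 after centring each array on its median. Its print block averaged 0.49 after global loess. The call was lost without array 2, 3, 4 or 6, at ratios of -0.38 to -0.29 over the 6 fits (adjusted p up to 0.0847). The third clone, AA409157, titled only as an expressed sequence tag and in another UniGene cluster, lay between 0.05 and 0.11 on all 6 arrays. Its mean was 0.09 ± 0.07 (adjusted p = 0.400) after print-tip loess and 0.48 (adjusted p = 0.0108) after global loess, opposite to AI843169.

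Msmo1, the sterol C4-methyl oxidase, had 2 clones and no print-tip call. Clone AU018130 had log2 ratios of -0.16, 1.19, 0.24, 0.84, 0.10 and 0.48, high on arrays 2 and 4 and below 0 on array 1. The mean was 0.45 ± 0.16 (adjusted p = 0.0853), and 0.24 after global loess (adjusted p = 0.301). Clone AU021515, titled as an expressed sequence tag, had 0.23, -0.11, 0.07, -0.04, -0.00 and -0.13 and a mean of 0.00 ± 0.08 (adjusted p = 0.985). Global loess placed it at -0.61 (adjusted p = 0.0104), close to the -0.57 that its print block averaged.

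Scarb1, the receptor through which the mouse adrenal takes cholesteryl esters from high-density lipoprotein, had 2 clones with strong signal. Clone AI848035 had log2 ratios of 0.09, 1.88, 0.84, 1.43, 0.14 and 0.74 on arrays 1 to 6, all above 0, with arrays 2 and 4 the highest and arrays 1 and 5 near 0. The mean of 0.85 ± 0.21 (SE, n = 6; 1.81-fold higher, limma, adjusted p = 0.0374) fell to 0.28 ± 0.19 after global loess (adjusted p = 0.294) and turned to -0.11 after centring each array on its median. Its print block averaged -0.51 after global loess. The knockout signal was 3390.7 to 8970.0 units and the wild-type signal 1411.1 to 5378.9 units, in each case above the local background. Ratios ran from 0.65 to 1.01 with 1 array left out, and the call was lost without array 2, 3, 4 or 6 (adjusted p up to 0.105). Without arrays 2 and 4 the ratio was 0.45 (adjusted p = 0.145), and -0.08 with global loess.

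The second Scarb1 clone, AW539410, had log2 ratios of -0.31, 1.27, 0.64, 1.39, 0.27 and 0.27, again highest on arrays 2 and 4 and lowest on array 1. Its mean of 0.59 ± 0.20 was not called (adjusted p = 0.0757) unless array 1 was left out (adjusted p = 0.0313), and global loess gave 0.10 (adjusted p = 0.696). Without arrays 2 and 4 it was 0.22 (adjusted p = 0.424), and -0.19 with global loess.

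Npc1, the transporter that releases cholesterol from late endosomes and lysosomes, had 3 clones. Clone C86743, the brightest of all 16 by its median knockout signal over background (76.9), had log2 ratios of 0.04, 1.10, 0.60, 1.03, 0.71 and 0.30, all above 0, highest on arrays 2 and 4 and lowest on array 1. The mean was 0.63 ± 0.14 (SE, n = 6), 1.55-fold higher (limma, adjusted p = 0.0306), against 0.28 ± 0.15 after global loess (adjusted p = 0.170) and -0.16 after centring each array on its median, with a block average of -0.36. The call was lost without array 2, 3, 4 or 6 (0.54 to 0.75 over the 6 fits, adjusted p up to 0.0835). Without arrays 2 and 4 the ratio was 0.41 (adjusted p = 0.138).

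Clone C78953, with the same title as C86743, had log2 ratios of -0.00, -0.08, -0.03, -0.31, -0.18 and 0.30, on both sides of 0. Its mean was -0.05 ± 0.09 (adjusted p = 0.715), and -0.04 after global loess. The difference between these 2 clones was not tested. The third clone, AW492286, titled as dendrin in the scanner files, passed the quality filter on arrays 1, 3 and 6 (0.07, 0.67 and 1.10) and was not tested. Over all members, the scanner-file title named the gene for 7 of the 16 clones, gave an older name of it for 3, named another gene for 3 and named no gene for 3.

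**Figure D3:**
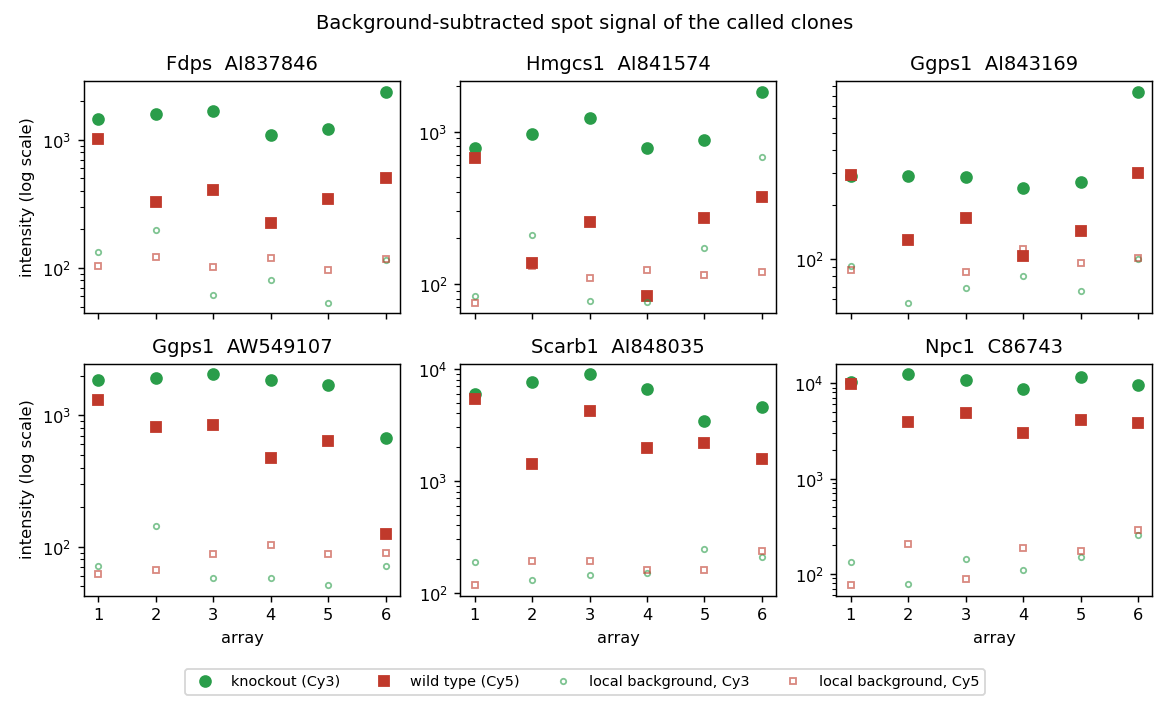
Background-subtracted intensity (log scale) of knockout RNA (green circles, Cy3) and wild-type RNA (red squares, Cy5) by array for the 6 called clones, before normalization, with the local background as small open symbols. The channels lie closest together on array 1, and the red signal of Hmgcs1 AI841574 and Ggps1 AI843169 comes down to about the local background on arrays 2 and 4.

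The high ratios on arrays 2 and 4 were a shared feature of several members. The mean over these 2 arrays, against the mean over the other 4, was 1.65 against 0.45 for Scarb1 AI848035, 1.33 against 0.22 for Scarb1 AW539410, 1.28 against 0.37 for Hmgcs1 AI841574, 1.07 against 0.41 for Npc1 C86743 and 1.01 against 0.16 for Msmo1 AU018130. Fdps AI837846 had 0.78 against 0.63. Over the 23151 clones measured on all 6 arrays, the median of this difference was 0.01 and its 5th to 95th percentiles ran from -0.42 to 0.80. Arrays 2 and 4 are those with the weakest wild-type signal. On these arrays in turn, that signal was 7.32 and 12.3 times its local background for Scarb1 AI848035, 6.04 and 8.55 for Scarb1 AW539410 and 19.3 and 16.3 for Npc1 C86743. It was 1.05 and 0.672 times for Hmgcs1 AI841574, 1.16 and 0.736 for Msmo1 AU018130 and 2.72 and 1.86 for Fdps AI837846. The part of the weak signal in the members' ratios was not tested beyond the fits that left these arrays out.

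Synthesis and uptake clones were set side by side by their medians on each array, as a description without a test. After print-tip loess the synthesis clones had medians of 0.03, 0.03, 0.07, 0.06, 0.11 and 0.09 on arrays 1 to 6, and the 4 tested uptake and transport clones had 0.02, 1.18, 0.62, 1.21, 0.21 and 0.30. Uptake minus synthesis was therefore -0.01, 1.15, 0.55, 1.16, 0.09 and 0.21, large on arrays 2, 3 and 4 and small on the other 3. After global loess the same difference was -0.16, 0.56, 0.12, 0.05, -0.39 and -0.46, with 3 arrays on each side of 0. By calls, the 11 synthesis clones gave 2 higher, 2 lower and 7 not called after print-tip loess (median 0.09), and the uptake and transport clones 2 higher, 0 lower and 2 not called (median 0.61). An unadjusted limma p under 0.05 was reached by 8 of 11 synthesis clones and 3 of 4 uptake and transport clones. After global loess the synthesis clones gave 5 higher and 4 lower (median 0.24), and no uptake or transport clone was called in either direction (median 0.19), with an unadjusted limma p under 0.05 in 9 of 11 and 0 of 4. The order of the 2 roles thus depended on the normalization. The share of all clones at an unadjusted p under 0.05 was not counted for these 2 fits. It was at least the 11.4% and 30.4% called, so the unadjusted counts are not read as particular to the members.

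**Figure D4:**
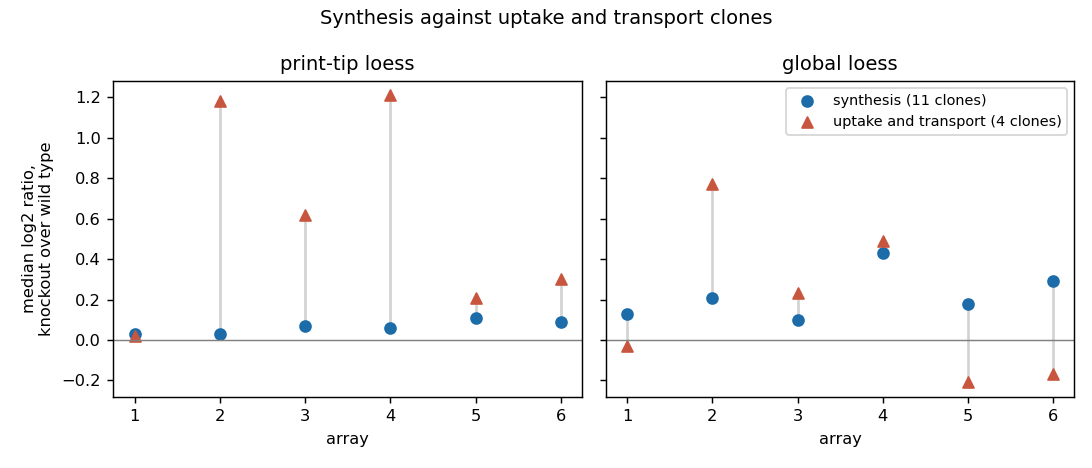
Median log2 ratio of knockout over wild type by array for the synthesis clones (blue circles) and the uptake and transport clones (red triangles), after print-tip loess (left) and global loess (right), joined by a grey line on each array. After print-tip loess the triangles lie above the circles by 1.15, 0.55 and 1.16 on arrays 2, 3 and 4, and after global loess they lie below the circles on arrays 1, 5 and 6.

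The rest of the pathway was read from lists that include the members. Over all clones, 6.77% were called higher and 4.61% lower after print-tip loess, and 16.2% and 14.2% after global loess. In the mevalonate list, 9 clones of 5 genes were tested, of which 2 were called higher and 0 lower after print-tip loess (median 0.19), both of them clones of the members Hmgcs1 and Fdps. Global loess called 4 higher and 2 lower (median 0.02). The 3 other clones, 1 of mevalonate kinase (Mvk, 0.19, limma adjusted p = 0.257) and 2 of the isopentenyl diphosphate isomerase Idi1 (0.05 and -0.05), were not called in either normalization and had no unadjusted p under 0.05 after print-tip loess. Of 20 clones of sterol-ring enzymes, 1 was called higher and 0 lower after print-tip loess (median -0.00), and 5 higher and 1 lower after global loess (median 0.10). The print-tip call was AI854800 of Cyp51, lanosterol demethylase, at 0.47 ± 0.11 (adjusted p = 0.0314; 0.53 with global loess), where the wild-type signal had a median of 0.599 times the background. The 2 further Cyp51 clones tested gave 0.22 (adjusted p = 0.229) and -0.02 (adjusted p = 0.877) after print-tip loess. Global loess called the first of these higher (0.47, adjusted p = 0.0336) and not the second (-0.38, adjusted p = 0.103). Squalene epoxidase (Sqle) gave 0.22 and 0.12 and squalene synthase (Fdft1) -0.06 and -0.18 after print-tip loess, none of them called. Global loess called the first clone of each, at 0.54 (AI836437 of Sqle, limma adjusted p = 0.00606) and 0.38 (AI848759 of Fdft1, adjusted p = 0.0289), the latter with its sign turned. It also called 7-dehydrocholesterol reductase (Dhcr7) higher by clone AI844029, at 0.57 (adjusted p = 0.00736). The print-tip value of that clone was 0.40 (adjusted p = 0.0667). The other Dhcr7 clone gave 0.27 after print-tip and -0.17 after global loess, not called. Of 22 clones of the isoprenoid branch, 0 were called higher and 2 lower after print-tip loess (median -0.04), and both were Ggps1. Global loess called 3 higher and 3 lower (median -0.02). Among subunits of the enzymes that attach isoprenoids to proteins, Fntb (-0.43, limma adjusted p = 0.0541) and Rabggtb (0.39, adjusted p = 0.0501, and 0.04) were not called in either normalization. Global loess called Pggt1b AU040610 higher (0.62, adjusted p = 0.00449) and Fnta AW556923 lower (-0.59, adjusted p = 0.015). After print-tip loess these clones gave -0.07 and -0.17 and were not called. Outside the members, an unadjusted limma p under 0.05 was reached after print-tip loess by 7 of 19 isoprenoid clones, with both signs among them. The same held for 2 of 18 sterol-ring clones. Over all clones this share was not counted, but it was at least the 11.4% called.

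In the uptake and intracellular transport list, 32 clones of 13 genes were tested, with 7 called higher and 1 lower after print-tip loess (median 0.12), beside 6.77% and 4.61% of all clones. Global loess called 4 higher and 2 lower (median 0.01), beside 16.2% and 14.2% of all clones. Without the members, 5 of 28 clones were called higher and 1 lower after print-tip loess, and 4 and 2 after global loess. Of these 28, 8 had an unadjusted limma p under 0.05 after print-tip loess. The share of all clones at that cut was not counted, but it was at least the 11.4% called. The lipoprotein receptor Lrp1 was higher by clone AI851325 at 0.49 ± 0.09 (limma, adjusted p = 0.0242; 0.88 with global loess), and its 4 other clones gave 0.63 (AI845459, adjusted p = 0.0227, not called with global loess), 0.20, 0.19 and 0.01. The oxysterol-binding protein Osbp was higher by clone AW554317 at 0.86 ± 0.20 (adjusted p = 0.0342; 1.05 with global loess), while its other tested clone gave 0.14 (adjusted p = 0.518). Npc2, the soluble partner that hands cholesterol to Npc1, was higher by clone AI835376 at 0.87 ± 0.25 (adjusted p = 0.0478; 1.41 with global loess), though its wild-type signal had a median of 0.645 times the background and the other 3 Npc2 clones gave -0.01, -0.03 and 0.04. The very low density lipoprotein receptor Vldlr was lower by clone AU040925 at -0.40 ± 0.11 (adjusted p = 0.0411; -0.63 with global loess), while its other tested clones gave 0.28 (AU040628, adjusted p = 0.238, with the strongest wild-type signal of the 3) and -0.34 (adjusted p = 0.0819). Each of these 4 calls, and that of Cyp51, was kept in 2 or 3 of the 6 fits that left out 1 array. After global loess, clones of Lrp1 were called in opposite directions, 1 higher and 1 lower of 5.

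Among regulators of sterol synthesis, 1 of 18 clones was called higher and 0 lower after print-tip loess (median 0.02). Over all clones 6.77% were higher and 4.61% lower. Global loess called 2 higher and 1 lower, beside 16.2% and 14.2% of all clones. The print-tip call was 1 of 3 clones of Ufd1, a cofactor in the degradation of ubiquitinated proteins of the endoplasmic reticulum (AI837222, 0.43, limma adjusted p = 0.0355; 0.36 with global loess, adjusted p = 0.0897), named after its value was seen. Insig1, which holds SREBP in the endoplasmic reticulum and is itself a target of SREBP, gave 0.49 (adjusted p = 0.0596), 0.23 and 0.09, and Srebf2, which encodes SREBP-2, gave -0.01 and -0.16. None of the 7 clones for cholesterol esters and efflux was called in either normalization (limma; 1 had an unadjusted p under 0.05 after print-tip loess), among them Abca1 at 0.16 and Apoe at -0.26.

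Most called markers of cortex and medulla were also higher in the knockout. Of all clones tested, 6.77% were called higher and 4.61% lower after print-tip loess, and 16.2% and 14.2% after global loess. Of 9 tested cortex marker clones, 3 were called higher and 0 lower (median 0.62; 6 and 0 with global loess), namely 2 of Hsd3b1 (1.40 and 0.75) and 1 of the steroidogenic regulator Nr5a1 (0.62). Star at 0.67 (limma, adjusted p = 0.0841) and Cyp11a1 at 0.72 (limma, adjusted p = 0.0712) were not called. Neither were Mc2r (0.30 and 0.38) and Fdx1 (0.25 for AI848274 and -0.01 for AI849249). Global loess also called Star (1.53), Cyp11a1 (1.16) and Fdx1 AI848274 (0.45) higher. It did not call Mc2r (0.29 and 0.12) or Fdx1 AI849249 (-0.34). Of 9 medulla marker clones, 4 were called higher and 1 lower (median 0.39), against 6 and 1 with global loess. The 4 higher calls were all clones of the granins Chga (0.39 and 0.83) and Chgb (0.68 and 0.70), and the lower call was Slc18a1 at -0.46. Chga AI839579 at 0.39 (limma, adjusted p = 0.0769), Th at 0.65 (0.0719), Ddc at 0.29 (0.0906) and Npy at -0.27 (0.243) were not called. Global loess called Chga AI839579 (1.26) and Th (1.10) higher, and neither Ddc (0.10) nor Npy (-0.16). Of 13 clones of markers of fat, liver, blood cells, macrophages, muscle, vessels and connective tissue, 1 was called higher, a Col1a1 clone named after its value was seen, and 0 lower (median 0.01; 3 and 2 with global loess). No kidney marker had a tested clone. The summed background-subtracted signal of the 10 cortex spots ran from 60778 to 126785 units in the knockout channel and from 5674 to 57910 in the wild-type channel, that of the 9 medulla spots from 28546 to 61846 and from 4463 to 32413, and that of the 14 other spots from 18483 to 34341 and from 4184 to 15924, before any normalization. In RNA of a whole gland, a change in the share of cortical cells and a change in RNA per cortical cell cannot be told apart, and the part of either in the members' ratios was not tested.

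The clones most like the leading members across arrays were found by Pearson correlation over the 6 arrays among 14682 clones of other named genes. For Fdps AI837846 these were Fyn (r = 0.992), 4933406C10Rik (r = 0.984) and Nisch (r = 0.981), with 45 clones above 0.95, and their mean log2 ratios were 0.20, -0.13 and 0.09. For Npc1 C86743 they were Lpp (r = 0.992), Zxdc (r = 0.991) and Dusp3 (r = 0.988), with 103 clones above 0.95, at 0.26, 0.07 and 0.49. These correlations share the same 6 arrays and their signal levels, and are given as a description.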

How the data were processed

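Each of 6 arrays gave 37632 spots with red (Cy5, wild type) and green (Cy3, knockout) intensities, deposited after subtraction of local background (median of 1.0 over 768 empty positions). The deposited quality score of each ratio runs from 0 to 1, and per the series design text ratios were used where it exceeded 0.3. The deposited ratio column, not used here, equals red over green after division by an array constant of 0.2204 to 0.783. The authors' deposited table of log2 ratios (red over green, not centred, array medians -0.10, -1.65, -0.84, -2.59, -0.67 and -1.10) equalled within 0.01 the ratio after background had been subtracted again in 100% of 2245 rows tested. Software versions of the scanner pipeline are not given in the sources used here.

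Log2 ratios of green over red were computed with intensities raised to at least 1.0, spots of quality 0.3 or less and 1048 control or empty spots left out, normalized by print-tip loess, averaged by clone, and set against 0 in limma 3.58.1 under R 4.3.3 (lmFit, then eBayes) for clones measured on at least 4 arrays. Correlations and counts used Python 3.11.15. Folds are back-transformed log2 means, and SE are limma's. The number of arrays limits the precision. The pipeline was tested on simulated data with print-block offsets, intensity curves and independent noise at each spot. These data held no dye preference of single clones and no weak wild-type channel, so the simulation does not cover either. Alternatives covered normalization, background, quality and dim-spot filters, array weights and left-out arrays.

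Genes were named through the platform annotation of the value table, each row of which was tied to the spot with the same values on all arrays (35793 of 35873 rows, within 0.002). Of 36064 clones, 22368 had 1 gene, 1101 several (not named) and 12595 none listed, and symbols of 11837 genes were updated through RefSeq GRCm38.p6, which held 11659. The text names every member clone, other listed genes called with 1 sign on all arrays in both normalizations (up to 4 per list), and the 3 clones most like the leading member of each role; other names were chosen after their values were seen. The members, the lists and the choice of print-tip loess were made with earlier results of these data known.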

Additional observations from a re-analysis of the deposited data

How the results depend on the processing

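The number of clones called over the whole array was 3271, and it moved to 8744 with global loess, 9448 with each array centred on its median, 5592 with each print block centred, 90 with the authors' deposited log2 table, 1915 with background subtracted again by normexp, 4938 with array weights, 93 without arrays 2 and 4, and 0 without a quality filter (limma, 10129 clones at an unadjusted p under 0.05). With 1 array left out, print-tip loess called 1 (without array 2 or array 3; 7126 and 7500 at an unadjusted p under 0.05) to 3779, with 28 without array 4 and 667 without array 6, and global loess called 8673, 6092, 6114, 4491, 8082 and 7967 without arrays 1 to 6 in turn. The members called, 6, went to 0 with the deposited table (7 of 15 at an unadjusted limma p under 0.05), 0 without a quality filter (11 of 16), 1 without arrays 2 and 4, and 2 with global loess without these arrays. That last alternative was chosen after seeing the data and called 2243 clones over the whole array. For the deposited table, the share of all clones at an unadjusted p under 0.05 is not given here. Without 1 array the members called ran from 0 (without array 2 or 3, each with 9 at an unadjusted p under 0.05) to 9. Where a clone was called in 1 of the settings compared, signs turned for Ggps1 AW549107 (0.16 with global loess, 0.10 with array medians, 0.15, 0.19, 0.17, 0.12, 0.15 and 0.18 with global loess without arrays 1 to 6 in turn, 0.15 without arrays 2 and 4), Msmo1 AU021515 (-0.61 and -0.91 in the first pair of these settings, and -0.76, -0.59, -0.66, -0.51, -0.59 and -0.55 without arrays 1 to 6 in turn), Scarb1 AI848035 (-0.11 with array medians, -0.76 with the deposited table, -0.08 with global loess without arrays 2 and 4), Npc1 C86743 (-0.16 with array medians and -0.86 with the deposited table) and Ggps1 AI843169 (1.15 with the deposited table). Signs also turned between uncalled values for Mvd C78718 (1.45), Ggps1 AA409157 (-0.21) and Npc1 C78953 (0.52) with the deposited table, Scarb1 AW539410 (-0.23 with array medians, -0.85 with the deposited table) and Msmo1 AU018130 (-0.04 with global loess without arrays 2 and 4), and in further settings for Msmo1 AU021515, Scarb1 AW539410 and Npc1 C78953. Over all member clones and alternatives, 241 results kept direction and side of the threshold, 62 lost the call, 36 gained one, 23 reversed and 18 changed sign with neither value called. The cause of these changes was not tested. Fewer arrays leave fewer degrees of freedom, and the part of this in the counts was not tested either. Each array holds both groups, so the fit of its log2 ratio against 0 is already a comparison paired within arrays, and no further pairing was modelled. Weak wild-type signal on arrays 2 and 4 limits ratios of dim clones.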
